A study of Mus musculus with 12 samples.

Results

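Bone marrow B cells of young mice that carry the Eµ-TTP-1 transgene were compared with those of wild-type mice. The comparison holds the 3 arrays titled Eµ-TTP-1 and the 3 titled Wild Type, 6 of the 12 arrays of the study, and was chosen from the labels alone. Each array measured total RNA of marrow cells selected by MicroBeads for B220, a form of CD45 found on the B lineage, on the Affymetrix MOE430 2.0 platform. The mice were littermates of 4 to 6 weeks on a 94% C57BL/6 background. Wild-type mice had no transgene, and Eµ-TTP-1 mice, called TTP mice here, had that transgene and none for Myc. The name Eµ denotes the intronic enhancer of the immunoglobulin heavy chain locus, which drives expression in the B lineage. How many founder lines were used is not given in the sources used here. The other 6 arrays, 3 from precancerous Eµ-Myc mice and 3 from precancerous mice with both transgenes (Eµ-Myc and Eµ-TTP-1), lent their spread to the fit and are set beside a few results. Of 18194 genes with a single symbol, 10287 had a log2 intensity above 4 on at least 3 of the 12 arrays and were tested.

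TTP (tristetraprolin) is the zinc finger protein encoded by Zfp36. It attaches to AU-rich stretches near the end of short-lived mRNAs and brings in the CCR4-NOT complex, which removes the poly(A) tail, so that the mRNA is degraded. Tnf is its best known target in macrophages, and its relatives Zfp36l1 and Zfp36l2 take part in early B-cell development. Intensities measure mRNA levels, not decay rates.

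The arrays labelled wild type 3 and TTP 3 stood apart from the other arrays of their groups, and in the same direction. Against the mean of arrays 1 and 2 of its group, wild type 3 differed by more than 1 log2 unit for 991 genes (9.63%) and TTP 3 for 2068 (20.1%). Of these genes 190 were above and 481 below on both arrays, and 0 went opposite ways. Myc itself was at log2 9.65, 9.68 and 12.65 on wild type 1, 2 and 3 and at 10.05, 10.39 and 13.47 on TTP 1, 2 and 3, against 12.99 to 13.91 on the 3 Eµ-Myc arrays. Eif2s3y, a Y-linked gene, was at 11.29 on wild type 3 and 10.41 on TTP 3 and at 2.94 to 3.05 on the other 4. Xist, expressed from the inactive X chromosome of females, was at 14.01, 13.85 and 8.14 on wild type 1, 2 and 3 and at 13.71, 13.93 and 11.75 on TTP 1, 2 and 3. Both arrays numbered 3 thus carried a Y-linked transcript together with Xist. Whether these samples were mixed or mislabelled was not tested, and each group difference below includes them unless stated. The arrays are therefore called by their labels throughout, and values without the arrays numbered 3 stand beside the results. Each of the 11 B-cell markers analysed here was above log2 8.7 on all 6 arrays, from Pax5 on TTP 3 at 8.77 to Cd79b on wild type 2 at 15.30. Markers of granulocytes were also bright, with a list mean of 10.83 to 12.82.

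Zfp36 was not higher on the arrays labelled TTP. Its log2 intensity was 10.70, 9.80 and 9.84 on wild type 1, 2 and 3 and 9.88, 9.89 and 9.78 on TTP 1, 2 and 3. Apart from wild type 1, which was the highest, these arrays lay within a narrow range, and the groups overlapped. The difference, TTP minus wild type, was -0.26 ± 0.39 (standard error of the limma fit, as for all differences below), with a 95% interval from -1.13 to 0.60. Without wild type 1 it was 0.028. A single probe set represented the gene. Whether it reads the transgene's transcript is not given in the sources used here, so it does not check the labels. Zfp36l1 was 0.33 ± 0.30 lower and Zfp36l2 0.17 ± 0.33 lower on the TTP arrays, and both groups overlapped for each. A dimmer probe set of Zfp36l1 gave -0.69 ± 0.41, also with overlap. Zfp36l3 was not analysed here.

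No gene passed the test between TTP and wild type. None of the 10287 genes had an adjusted p under 0.05 in limma (0 genes, 0%), and the smallest adjusted p was 0.99991. An unadjusted p under 0.05 was found for 149 genes (1.45%), of which 23 were higher (0.224%) and 126 lower (1.22%) in TTP. The total share was below that set by the threshold itself, 0.05, when no gene differs. The 3 TTP values all lay above the 3 wild-type values for 62 genes (0.603%) and all below for 375 (3.65%). With 3 arrays a group, some genes separate fully without any true difference. A lack of overlap is therefore given below as a description, not as a call. The difference was above 0 for 3746 genes (36.4%), and its median was -0.06. The direction of this split turned without TTP 3, when 493 genes had an unadjusted p under 0.05 and 350 of them were higher in TTP. Without the 4 arrays numbered 3 there were 881, of which 628 were higher. TTP 3 was the array with the lowest median of tested genes at 8.93, against 9.14 to 9.31 on the other 5. Without the arrays numbered 3 the median difference was 0.04, and after quantile normalization it was -0.00.

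The data also bound how large most differences could be. The 95% interval of the difference lay within 1 log2 unit either side of 0 for 8048 genes (78.2%) and within 0.5 for 2991 (29.1%). With all 6 arrays 28 genes differed by more than 1 log2 unit, 14 in each direction. Without the arrays numbered 3 there were 149 such genes, 122 higher and 27 lower in TTP. The median standard error was 0.22, as large as the SD of the differences across genes, 0.23.

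**Figure D1:**
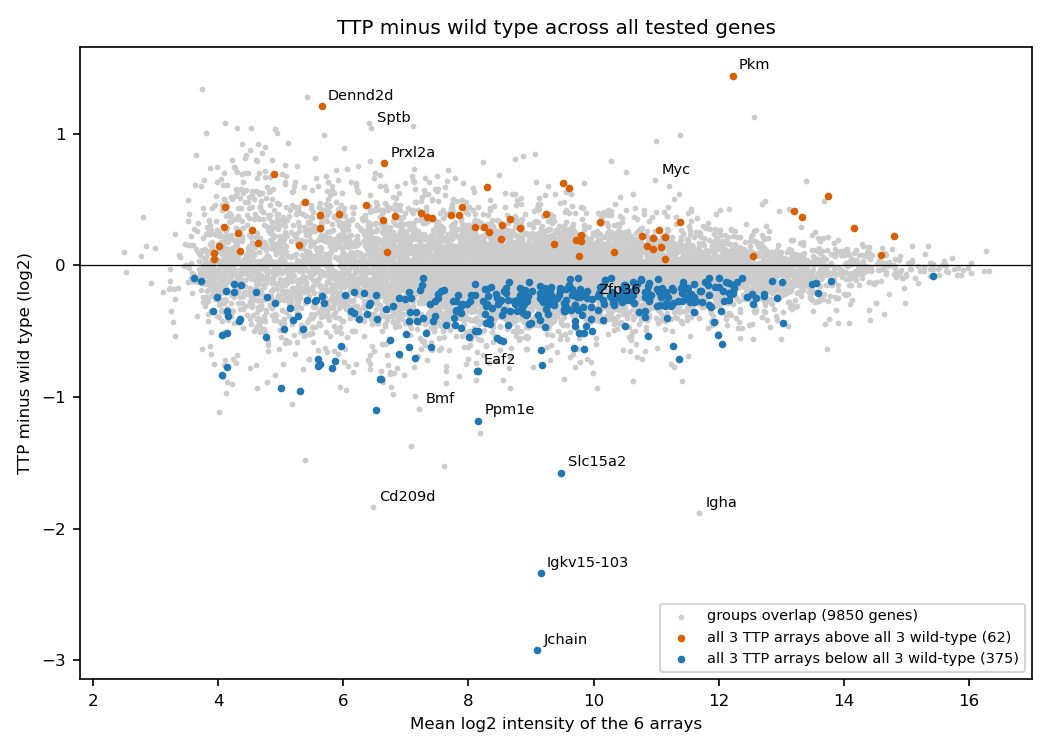
Difference of group means, TTP minus wild type (log2, vertical axis), against the mean log2 intensity of the 6 arrays (horizontal axis) for the 10287 tested genes. Orange points are the 62 genes whose 3 TTP values all lay above the wild-type values, blue points the 375 below, and grey points the genes whose groups overlap. Jchain, Igkv15-103 and Igha lie lowest, and Pkm highest.

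The 3 genes with the largest differences of all those tested, Jchain, Igkv15-103 and Igha, encode parts of antibodies and were lower on the TTP arrays, though none passed with all 12 arrays in the fit. Jchain encodes the joining chain that links IgA and IgM into polymers and is made by antibody-secreting cells. Its log2 intensity was 11.23, 10.50 and 9.95 on wild type 1, 2 and 3 and 6.76, 8.50 and 7.64 on TTP 1, 2 and 3. Every TTP array lay below every wild-type array. The difference was -2.92 ± 0.63, a 7.59-fold lower level, and it was -3.23 without the arrays numbered 3 (adjusted p = 0.99991 in limma).

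Igha encodes the constant region of the IgA heavy chain. It was at 13.10, 12.97 and 11.82 in wild type and 10.47, 11.97 and 9.80 in TTP. TTP 2 lay above wild type 3, so the groups overlapped. Each TTP array was below the wild-type array of its number, by 2.62, 1.00 and 2.02, though the labels do not state that numbers pair arrays. The difference was -1.88 ± 0.75, and the other probe sets of the gene gave -1.81 ± 0.74 and -1.76 ± 0.72. Igkv15-103, a variable segment of the kappa light chain, was at 11.11, 10.44 and 9.42 in wild type and 7.92, 8.54 and 7.51 in TTP, without overlap. Its difference was -2.34 ± 1.01, or -2.55 without the arrays numbered 3. Probe sets for variable segments can also bind related segments, so which segment it read is uncertain.

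These 3 genes and Slc15a2 were called by the alternative fit with the replicate number as a block. On the 6 arrays alone, with 2 residual degrees of freedom, that fit called 4 genes (0.0389%), all lower in TTP: Igkv15-103 (adjusted p = 0.0300), the peptide transporter gene Slc15a2 (0.0348), Igha (0.0372) and Jchain (0.0372). The calls did not hold under other scalings, since it called 0 genes when arrays were quantile-normalized and 0 when they were set to one median. The differences stayed of like size, at -2.98 and -2.87 for Jchain and -1.54 and -1.52 for Slc15a2. The adjusted p over the 4 genes then ran from 0.108 to 0.240 and from 0.0526 to 0.297. Without both arrays numbered 3 none of the 4 was called (adjusted p from 0.0754 to 0.0984), while the differences kept their sign. With the block on all 12 arrays 0 genes were called.

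Slc15a2 encodes PEPT2, which carries small peptides into the cell. It was at 10.17, 10.80 and 9.84 in wild type and 9.02, 9.01 and 8.05 in TTP, again without overlap. The difference was -1.57 ± 0.43, and a dimmer probe set of the gene gave -0.74 ± 0.75.

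The IgM heavy chain gene gave different answers by probe set. Probe set A (1425385_a_at) was at 10.87, 10.004 and 7.96 in wild type and 4.47, 5.15 and 6.13 in TTP, a difference of -4.36 ± 0.72 (adjusted p = 0.844). Probe set B (1425247_a_at) was at 7.20, 6.501 and 5.97 on the wild-type arrays and below the floor of 4 on all TTP arrays, at least 5.88-fold lower. Both sets separated the groups on every array. Set B was the only probe set that passed when each was tested separately (adjusted p = 0.000586 in limma), and it was also below the floor on all arrays with the Myc transgene. The brightest sets differed far less. Set C (1427329_a_at) differed by -0.17 ± 0.15 from a wild-type mean of 15.04. Set D (1427351_s_at) differed by -0.25 ± 0.16 and also separated the groups, though narrowly. Sets 1452535_at and 1427870_x_at differed by -0.67 ± 0.37 and -0.46 ± 0.19, each with overlap. The gene as represented in the fit, by set C, did not pass (adjusted p = 0.99991 in limma).

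Over the 15 tested immunoglobulin genes all 15 were lower on the TTP arrays, with a median of -0.56 against -0.06 for all genes. Without the arrays numbered 3, 13 were lower and 2 higher, with a median of -0.46 against 0.04. With all arrays 1 had groups that did not overlap, and 2 had an unadjusted p under 0.05, Igha and Igkv15-103. Over all genes 3.65% lay below without overlap and 1.45% had such a p. Ighg3, the constant region of IgG3, differed by -0.39 ± 0.46. Immunoglobulin probe sets share sequence, so the 15 are not separate measurements.

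The other genes of plasma cells differed by less than Jchain did. Of 12 tested members of the plasma cell list 10 were lower and 2 higher, with a median of -0.23, or -0.09 without the arrays numbered 3. Prdm1, the transcription factor that directs plasma cell formation, was at 4.85, 5.36 and 3.41 in wild type and 5.09, 5.35 and 2.54 in TTP. Xbp1, the factor of the secretory programme, differed by -0.06 ± 0.31, the surface proteoglycan Sdc1 by -0.46 ± 0.26, and the chaperone Mzb1 by 0.12 ± 0.11. None of these 4 separated the groups. Derl3, which serves protein degradation at the endoplasmic reticulum, was 0.37 ± 0.22 lower without overlap. Tnfrsf17, the BCMA receptor of plasma cells, was below the floor. In bulk samples fewer cells of a type and less RNA per cell cannot be told apart.

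The same transcripts on the arrays with the Myc transgene are given for comparison. Jchain was at 5.53, 6.85 and 8.28 on Eµ-Myc 1, 2 and 3 and at 4.85, 5.34 and 5.25 on the arrays with both transgenes. The level was lower in each of the latter, by 1.74 ± 0.63, and the difference of the differences, the interaction, was 1.18 ± 0.90 (limma adjusted p = 0.522). Igha was 1.02 lower and Igkv15-103 0.01 higher with both transgenes than with Myc alone.

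**Figure D2:**
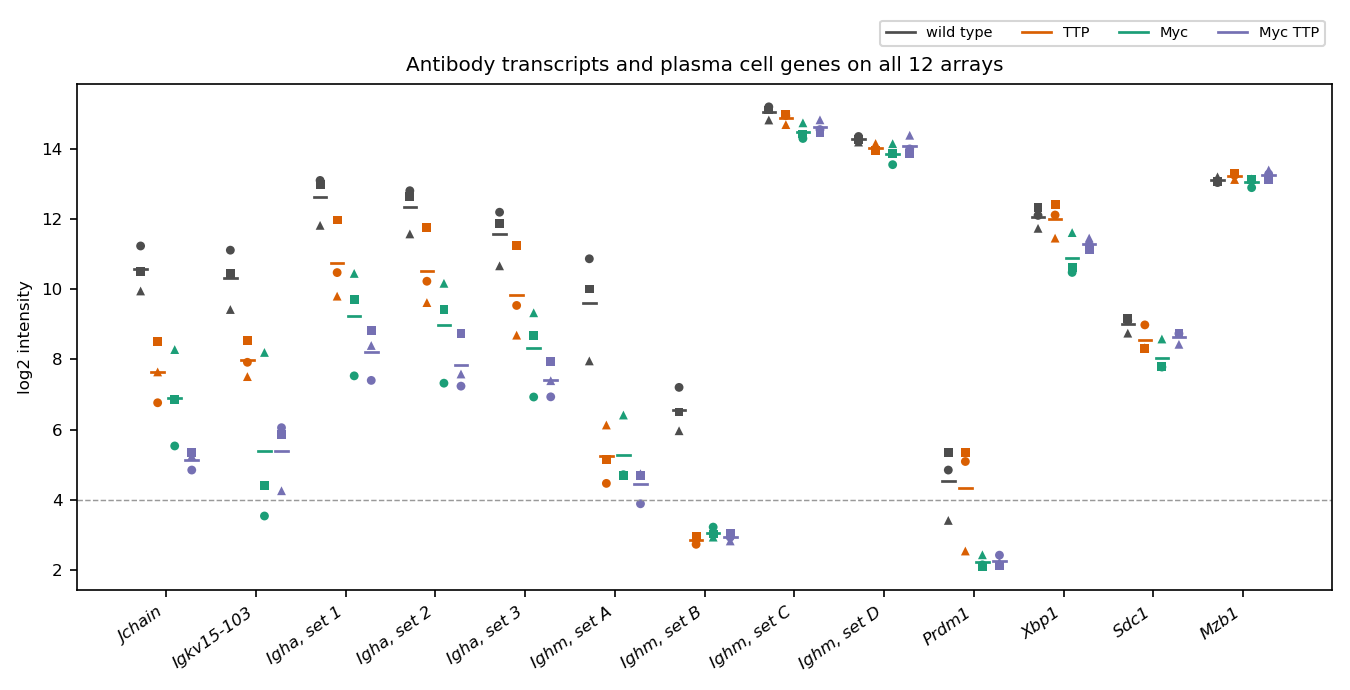
Log2 intensity (vertical axis) of antibody transcripts and plasma cell genes on all 12 arrays, with wild type in grey, TTP in orange, Eµ-Myc in green and both transgenes in violet. Circles, squares and triangles are arrays 1, 2 and 3, short lines the mean of each group of 3, and the dashed line the floor of 4. Jchain, Igkv15-103 and the Ighm probe sets A, B and, narrowly, D separate wild type from TTP, while Prdm1, Xbp1, Sdc1 and Mzb1 do not.

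The 12 lower genes of smallest p, immunoglobulin genes aside, spanned varied functions. Eaf2, Iqcb1 and Slc15a2 among them are all on chromosome 16, so they may not be separate changes. Whether they share a cause was not tested. Their unadjusted limma p ran from 0.000756 to 0.00601 and their differences from -0.39 to -2.92, and the groups did not overlap for any of them, which their choice by p favours. Eaf2, a partner of the ELL elongation factors of RNA polymerase II, had the smallest p. It was at 8.43, 8.70 and 8.50 in wild type and 8.01, 7.47 and 7.75 in TTP, a difference of -0.80 ± 0.17. Wild type varied little here, and TTP 1 came nearest to it.

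Several of these genes, picked by small p, differed by nearly the same amount for every array number. The labels do not state that the numbers pair the arrays, so these are descriptions. Iqcb1, a protein of primary cilia, was lower on TTP by 0.53, 0.57 and 0.60 for numbers 1, 2 and 3. Ifi30, a lysosomal thiol reductase of antigen presentation, was lower by 0.59, 0.61 and 0.61. Rrm2b, a ribonucleotide reductase subunit induced by p53, was lower by 0.58, 0.67 and 0.59. The levels themselves shifted more between array numbers than the differences did: Ifi30 was at 12.29, 12.65 and 12.13 on wild type and 11.70, 12.04 and 11.53 on TTP. The differences over all arrays were -0.57 ± 0.13, -0.60 ± 0.18 and -0.61 ± 0.18.

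Ppm1e, a serine and threonine phosphatase, had the largest difference of means among these lower genes after Jchain and Slc15a2. It was at 9.03, 8.88 and 8.31 in wild type and 8.17, 7.03 and 7.49 in TTP, a difference of -1.18 ± 0.31. Csrnp2, a nuclear protein, differed by -0.87 ± 0.24, and Sspn, sarcospan of the dystrophin complex, by -0.86 ± 0.25. The remaining ones were smaller. The phosphatidylinositol 4-kinase partner Ttc7b differed by -0.65 ± 0.16, the F-box protein gene Fbxw2 by -0.63 ± 0.19 and the aspartic protease gene Napsa by -0.39 ± 0.11.

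Beyond these, the lower genes without overlap included Apobec2, a deaminase relative, at -0.93 ± 0.46. Fhit, a hydrolase and tumour suppressor, differed by -1.10 ± 0.64, and this rested on TTP 2 at 4.40, since TTP 1 and 3 were at 6.81 and 6.72 against 6.86, 7.42 and 6.93 on wild type.

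Among higher genes Pkm, the pyruvate kinase that ends glycolysis, had the smallest p. It was at 10.66, 11.10 and 12.75 on wild type 1, 2 and 3 and at 12.995, 13.004 and 12.83 on TTP 1, 2 and 3. All TTP arrays lay above all wild-type arrays, but wild type 3 reached within 0.08 of TTP 3. The difference was 1.44 ± 0.40 (adjusted p = 0.99991 in limma). It depended on wild type 3: without that array it was 2.06 and passed (adjusted p = 0.00157). Without the 4 arrays numbered 3 Pkm rose by 2.12 (adjusted p = 0.00274) and was the 1 gene called (0.00972%).

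On the arrays with the Myc transgene Pkm was at 12.24, 11.86 and 12.30 with Myc alone and at 13.10, 13.16 and 13.18 with both transgenes. The groups did not overlap there either, and the difference was 1.01. The 6 arrays with the TTP transgene thus lay at 12.83 to 13.18 and the 6 without it at 10.66 to 12.75. The interaction did not pass (limma adjusted p = 0.709).

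The other glycolytic genes differed by less than Pkm did. Of 16 tested members of the list 15 were higher and 1 lower in TTP, with a median of 0.14, or 0.27 without the arrays numbered 3. Only 1 had an unadjusted p under 0.05, Pkm itself, against 1.45% of all genes. The lactate dehydrogenase gene Ldha differed by 0.11, the glyceraldehyde phosphate dehydrogenase gene Gapdh by 0.12 ± 0.12, and Pdk1, which limits pyruvate entry into mitochondria, by 0.39 ± 0.31. For array number 3 alone the median of the list was -0.11, where the median of tested genes was 8.93 on TTP 3 and 9.24 on wild type 3.

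Apobec3, a cytidine deaminase that restricts retroviruses, had the pattern of Pkm. It was at 10.63, 10.60 and 11.49 in wild type and 11.60, 11.46 and 11.47 in TTP, so that wild type 3 lay among the TTP arrays. The difference was 0.60 ± 0.21, and 0.91 without the arrays numbered 3. With the Myc transgene it was 0.34, and the groups did not overlap there.

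Of the 12 higher genes of smallest p, 7 had groups that did not overlap, and their p ran from 0.00445 to 0.0291. Dennd2d, an exchange factor for Rab GTPases, was at 5.09, 5.33 and 4.73 in wild type and 6.19, 6.97 and 5.60 in TTP, a difference of 1.21 ± 0.43. Each TTP array was higher than all wild-type arrays. Prxl2a, a peroxiredoxin-like protein, differed by 0.78 ± 0.30, also without overlap. The cohesin subunit gene Rad21 differed by 0.41 ± 0.16 and the methionine aminopeptidase gene Metap2 by 0.37 ± 0.12, although another probe set of Metap2 gave -0.027. The coatomer subunit gene Copb2 differed by 0.50 ± 0.15 and Lamtor1, the membrane anchor of the Ragulator complex, by 0.44 ± 0.16, each with overlap. The chromatin protein gene Hmgb2 was among the larger differences without overlap, at 13.42, 13.38 and 13.65 in wild type and 13.896, 13.849 and 14.29 in TTP. It was 0.53 ± 0.22 higher in TTP but 0.52 lower with both transgenes than with Myc alone. Ccr3, a chemokine receptor of eosinophils and basophils, was 1.07 and 1.01 higher for numbers 1 and 2 and 0.03 higher for number 3.

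**Figure D3:**
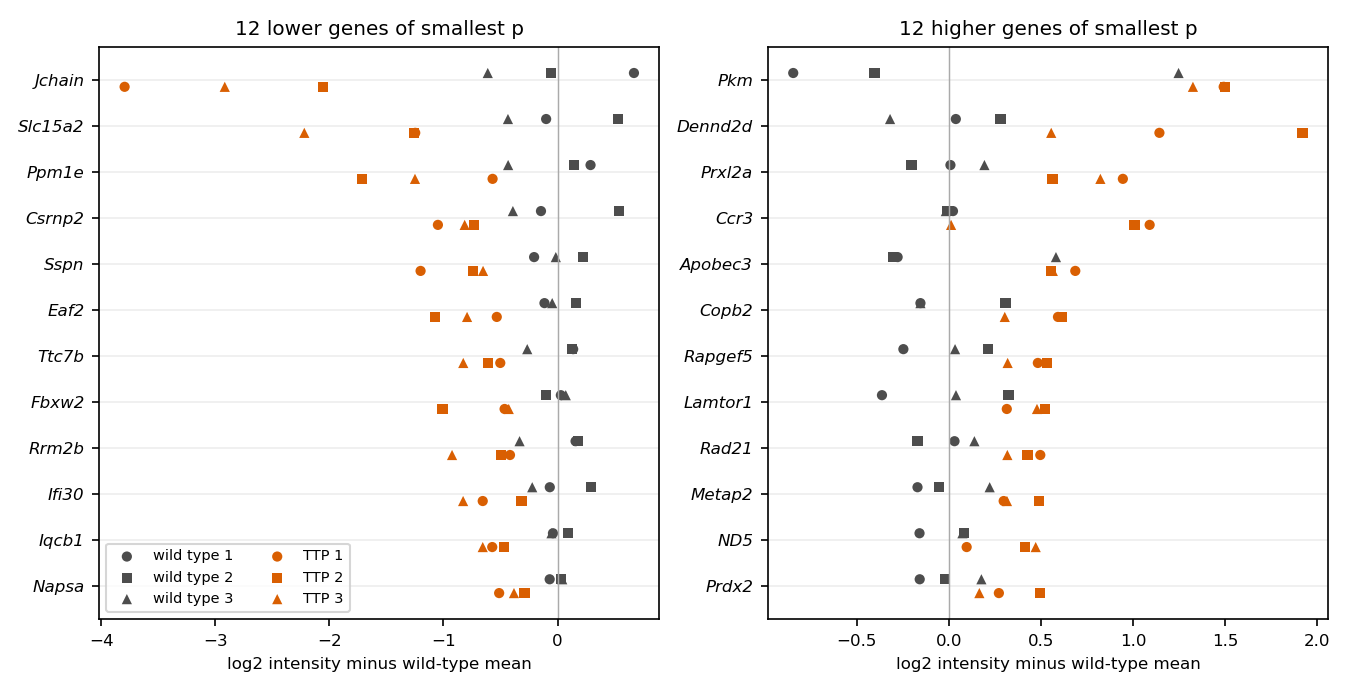
Log2 intensity minus the wild-type mean (horizontal axis) for the 12 lower (left) and 12 higher (right) genes of smallest p, with 1 point per array. Circles, squares and triangles are arrays 1, 2 and 3, grey for wild type and orange for TTP. The groups are apart for all 12 lower genes and for 7 of the 12 higher ones, and wild type 3 lies near the TTP arrays for Pkm and Apobec3.

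No reported TTP target passed the test, and their median was slightly below that of all genes. The list held 40 mRNAs described as bound or destabilised by TTP in other cells. Of these 25 were tested, 14 were below the floor and 1 had no probe set of its own. Among the tested ones 8 were higher and 17 lower, with a median of -0.19 against -0.06 for all genes, and -0.03 against 0.04 without the arrays numbered 3. None had an unadjusted p under 0.05 or groups that did not overlap. Over all genes 1.45% had such a p, and 0.603% lay above and 3.65% below without overlap. With shares that low, none among 25 does not set the targets apart from all genes.

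Tnf was at 4.95, 4.49 and 4.50 in wild type and 3.43, 5.10 and 3.36 in TTP. TTP 2 was the highest of all 6, and the other TTP arrays were below the floor. The TTP mean was below the floor, and the difference, -0.68 ± 0.40, did not pass. Il1b, an inflammatory cytokine, was at 3.60, 4.78 and 3.30 in wild type and 4.76, 5.93 and 3.23 in TTP. Its wild-type mean was below the floor, and the difference was 0.74 ± 0.63. Arrays 2 were the brightest of each group for Il1b. Brighter targets included the survival factor Mcl1 (-0.19), the kinase genes Pim1 (-0.21) and Pim3 (-0.21), and Bcl2, which inhibits cell death (0.39). The cytokines Il6, Il10 and Il2, the growth factor Csf2 and the cyclooxygenase gene Ptgs2 were below the floor.

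Myc is among the reported targets. It was higher on the TTP array of each number, by 0.40, 0.71 and 0.83, and the difference was 0.65 ± 0.95 with a 95% interval from -1.45 to 2.75. The groups overlapped because wild type 3, at 12.65, lay above every TTP array except TTP 3, at 13.47. Without TTP 3 alone the difference turned to -0.44, and without wild type 3 alone the difference was 1.64. With the Myc transgene present it was -0.90. Of the 12 tested genes of the MYC and MAX network 3 were higher and 9 lower, and the median was -0.10.

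Genes of the decay machinery lay close to wild type. Of 37 tested members of the CCR4-NOT complex, the exosome and the decapping enzymes 7 were higher and 30 lower, with a median of -0.11, and -0.02 without the arrays numbered 3. Of them 2 had an unadjusted p under 0.05, against 1.45% of all genes. Cnot8, a deadenylase subunit, was at 10.38, 10.53 and 10.35 in wild type and 10.09, 10.17 and 10.26 in TTP, a difference of -0.25 ± 0.11. Btg2, an antiproliferative protein that binds the deadenylases, differed by -0.47 ± 0.21 and overlapped. With the Myc transgene both differences had the opposite sign, 0.35 and 0.40, but the median of the whole list was 0.29 there.

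Other proteins that bind AU-rich elements or related stem-loops had a median of -0.04 over 19 genes, 7 higher and 12 lower. Zc3h12a, the endonuclease Regnase-1 that cleaves inflammatory mRNAs, was at 7.46, 7.37 and 6.87 in wild type and 6.61, 6.82 and 6.24 in TTP, without overlap. Its difference was -0.67 ± 0.22 (adjusted p = 0.99991 in limma), and 0.29 with the Myc transgene, where the median of the list was 0.16. Tia1, a translational repressor, was 0.28 ± 0.12 lower without overlap.

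**Figure D4:**
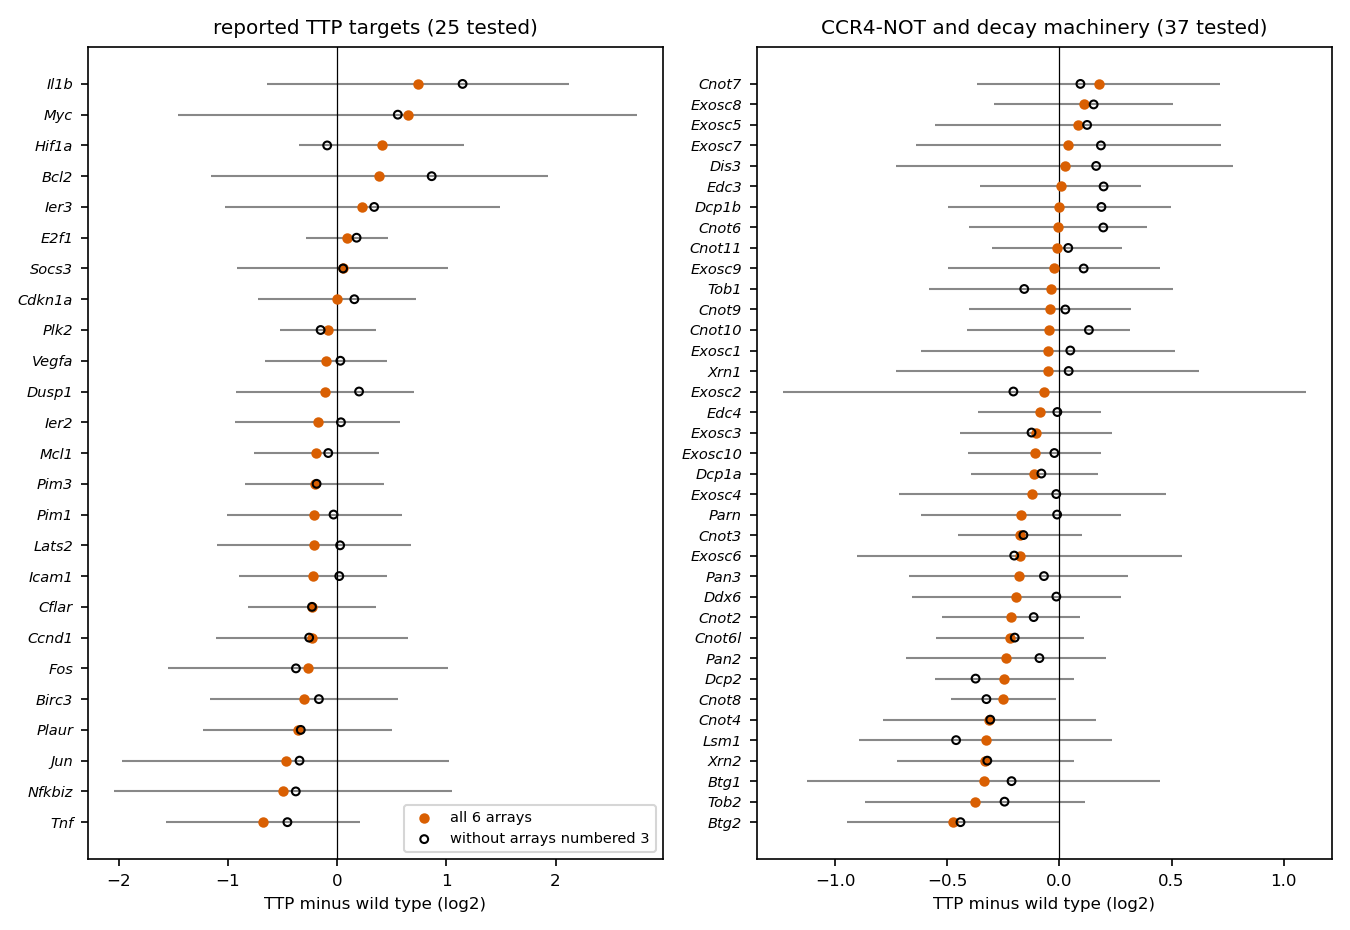
Difference TTP minus wild type (log2, horizontal axis) for each tested reported TTP target (left, 25 genes) and gene of the decay machinery (right, 37 genes). Orange points are the differences over all 6 arrays, bars their 95% intervals, and open circles the differences without the arrays numbered 3. The interval of every target spans 0. The outermost points, Tnf and Il1b, each have a group mean below the floor of 4.

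B-cell stage genes shifted by small amounts. Of 17 pan-B genes 1 was higher and 16 lower, with a median of -0.22, and -0.19 without the arrays numbered 3. Tcf3, which encodes the E2A factors of the B lineage, differed by -0.22 ± 0.10, and Spib, an Ets factor of B cells, by -0.41 ± 0.21. Pax5, the factor that maintains B-cell identity, was at 10.47, 10.11 and 9.33 in wild type and 9.25, 9.80 and 8.77 in TTP, and was 0.70 ± 0.38 lower. Each TTP array lay below the wild-type array of its number, but the groups overlapped.

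Of 23 pro-B and pre-B genes 7 were higher and 16 lower, with a median of -0.10. Rag1, a subunit of the V(D)J recombinase, was 0.44 ± 0.41 lower, while the surrogate light chain genes Vpreb1 and Igll1 differed by 0.06 and 0.18. Of 27 immature and mature B-cell genes 9 were higher and 18 lower, also with a median of -0.10. Traf3ip3, an adaptor of lymphocyte survival, was 0.34 ± 0.13 lower without overlap, and Klf2, a factor of lymphocyte quiescence and homing, 0.48 ± 0.22 lower with overlap. The 24 genes of B-cell receptor signalling had a median of -0.13, which was 0.00 without the arrays numbered 3. Of them 0 had an unadjusted p under 0.05, against 1.45% of all genes.

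Signalling lists were lower on the TTP arrays, most of all for number 3. For number 3 alone, however, the median of every list was below 0, with -0.18 for DNA replication and -0.80 for NK-cell markers. The median of tested genes was 8.93 on TTP 3 and 9.24 on wild type 3. Of 24 interferon response genes 3 were higher and 21 lower, with a median of -0.49. The median was -0.30 without the arrays numbered 3, and -0.70 for number 3 alone. Ifi47, an interferon-induced GTPase, was at 11.19, 11.37 and 10.84 in wild type and 10.58, 10.56 and 10.65 in TTP. Its difference was -0.54 ± 0.19 without overlap. It was the 1 member with an unadjusted p under 0.05, against 1.45% of all genes. Oas2, a sensor of double-stranded RNA, differed by -0.92 ± 0.43 with overlap.

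All 16 NF-κB subunits and targets were lower, with a median of -0.29, or -0.12 without the arrays numbered 3. Rel, the subunit c-Rel of lymphocytes, was at 7.35, 7.54 and 7.29 in wild type and 7.11, 6.99 and 6.82 in TTP, without overlap. None of the 16 had an unadjusted p under 0.05, against 1.45% of all genes. Of 20 immediate early genes 5 were higher and 15 lower, and the median went from -0.21 to -0.02 without the arrays numbered 3. Dusp2, a phosphatase of MAP kinases, was lower on every array number. It was at 12.11, 12.26 and 11.19 in wild type and 11.11, 11.30 and 10.51 in TTP, so the groups overlapped. It was lower by 1.00, 0.96 and 0.68 for numbers 1, 2 and 3, with a difference of -0.88 ± 0.30.

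Plasmacytoid dendritic cells of mice carry B220 and are a main source of interferon. Their list moved with the interferon list: all 13 tested members were lower, with a median of -0.50, or -0.39 without the arrays numbered 3. Its mean level was 10.03, 10.22 and 9.07 in wild type and 9.47, 10.01 and 8.16 in TTP. Siglech, a defining receptor of these cells, differed by -0.82 ± 0.69 and the lectin gene Cd209d by -1.84 ± 0.86. Irf7 and Bst2 belong to both lists. The part of these cells in the interferon values was not tested.

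Growth and metabolism lists lay slightly higher or did not move. Of 35 ribosome biogenesis genes 27 were higher and 8 lower, with a median of 0.12, or 0.24 without the arrays numbered 3. The list mean was 9.97, 10.18 and 11.34 in wild type and 10.22, 10.365 and 11.25 in TTP, so that both arrays numbered 3 were the highest. Of 27 DNA replication genes 21 were higher and 6 lower, with a median of 0.09, or 0.20 without the arrays numbered 3. The medians were 0.01 for oxidative phosphorylation, -0.01 for cytosolic ribosomal proteins, -0.06 for mitosis, -0.07 for heat shock and stress, and -0.01 for D and E cyclins and CDK inhibitors. Of 20 p53 targets 7 were higher and 13 lower (median -0.08), and Mdm2, the ligase that degrades p53, was 0.46 ± 0.25 lower. Of 13 BCL2 family genes 6 were higher and 7 lower. Bmf, which promotes cell death, differed by -1.09 ± 0.73, with TTP 2 at 5.29 while the other TTP arrays were at 7.01 and 7.70.

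Markers of other marrow cells differed more between array numbers than between the groups' means for erythroid cells and granulocytes. Erythroid markers had a list mean of 9.61, 9.49 and 8.48 in wild type and 10.17, 10.65 and 8.08 in TTP. TTP 1 and 2 were thus the highest and TTP 3 the lowest of the 6. Of 16 erythroid genes 14 were higher and 2 lower, with a median of 0.43 that was 0.91 without the arrays numbered 3 and -0.31 for number 3 alone. Sptb, beta spectrin of the red cell membrane, was at 6.25, 6.24 and 5.27 in wild type and 7.96, 7.95 and 4.99 in TTP.

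Granulocyte markers were likewise lowest on TTP 3 and highest on TTP 2, with a list mean of 11.96, 12.37 and 11.395 in wild type and 12.43, 12.82 and 10.83 in TTP, and a median difference of 0.04 (0.48 without the arrays numbered 3). NK-cell markers had a median of 0.31 (0.82) and basophil and mast cell markers of 0.16 (0.66). Monocyte and macrophage markers had a median of 0.04 (0.26), T-cell markers of 0.26 (0.42), stem and progenitor markers of 0.12 (0.45), megakaryocyte markers of -0.03 (0.20), and adhesion and homing genes of -0.06 (0.11). The T-cell genes Cd3e, Cd3g, Cd4 and Cd5 were not above the floor on enough arrays to be tested. Csf1r, the receptor of macrophage growth factor, was 0.59 ± 0.38 higher without overlap, although another of its probe sets gave -0.016. Across the 34 lists no member was called. The part of these cells in the lists described above was not tested.

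**Figure D5:**
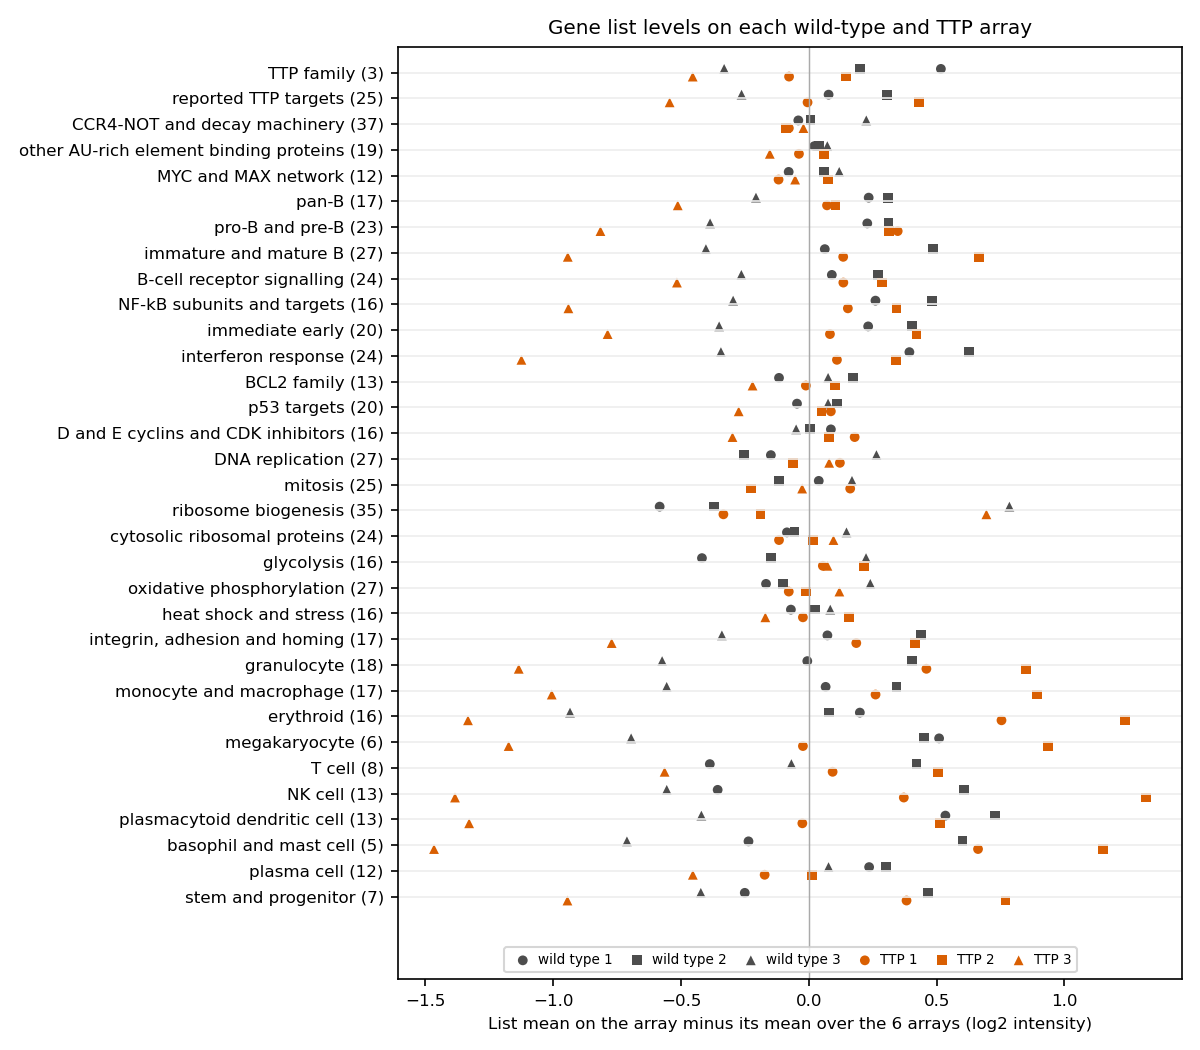
Mean log2 level of each gene list on each of the 6 arrays, minus the mean over the 6 arrays (horizontal axis), with the number of tested genes in brackets. Circles, squares and triangles are arrays 1, 2 and 3, grey for wild type and orange for TTP. Both triangles lie to the left for erythroid, granulocyte and NK-cell markers, among others, and to the right for ribosome biogenesis.

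The differences between TTP and wild type were set beside those between the arrays with both transgenes and those with Myc alone, which share no array with them. Across genes the differences of both comparisons had a correlation of 0.10, given as a description since genes are not replicates. With the Myc transgene the groups did not overlap upward for 3321 genes (32.3%) and downward for 145 (1.41%). The median of tested genes on arrays 1, 2 and 3 was 9.38, 9.21 and 9.10 with both transgenes. With Myc alone it was 8.96, 8.98 and 8.96. The part of this offset in the higher genes of that comparison was not tested. Of the 375 genes lower in TTP without overlap, 8 were also lower there without overlap (2.13%) and 160 were higher (42.7%). Of the 62 genes higher in TTP without overlap, 13 were higher there too (21.0%) and 1 was lower. Jchain, Sspn, Ifi30 and Fbxw2 were lower in both comparisons, and Pkm and Rapgef5, an exchange factor for Rap GTPases, were higher in both. Eaf2, Iqcb1 and Csrnp2 were lower in TTP and higher with both transgenes.

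For the difference between the comparisons limma made 0 calls. An unadjusted p under 0.05 was found for 1351 of the 10287 tested genes, against 149 for TTP over wild type. The smallest adjusted p of the interaction was 0.358. Without the 4 arrays numbered 3 limma called 235 of the 10287 genes. Of these 226 had a more positive and 9 a more negative difference in the presence of Myc. The arrays were not set to one median in this fit, so the offset given above enters these differences. When all probe sets were tested separately on the 12 arrays, 1 was called, set B of Ighm (interaction 3.56, adjusted p = 0.0280), whose 6 arrays with the Myc transgene were all below the floor.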

How the data were processed

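Total RNA of 12 samples was hybridised to 1 array each. The deposited values are intensity on a linear scale, made by the authors with GCRMA, per the submitters' processing notes, which name no version. GCRMA corrects background and normalizes between arrays, so a change in total RNA per cell is not seen, and dim probe sets pile up at a low value. Scanner files were not used here. For arrays, their number limits the precision.

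The analysis took log2 with no pseudocount. Of 45101 probe sets 34958 had a single gene symbol in the platform annotation, 932 several and 9211 none, and 34754 were found in a RefSeq table (GRCm38.p6) used to update symbols. Each gene was represented by its probe set of highest mean, and tested above log2 4 on at least 3 of 12 arrays, so 7907 genes were left out. Where all arrays of a group were below that floor a fold is a lower bound against it. limma 3.58.1 in R 4.3.3 (lmFit, eBayes with trend, 4 group means, 8 residual degrees of freedom) gave two-sided p-values, Benjamini-Hochberg adjusted over all genes, and was tested on simulated data. All p-values come from it. The labels call samples of a group biological replicates.

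Same-numbered wild-type and TTP arrays deviated together (residual correlations 0.498, 0.664 and 0.821), which the labels do not state as pairing. Wild type 2 with TTP 1 and wild type 1 with TTP 2 also correlated, at 0.512 and 0.433. Residuals within a group cancel out, so a shared deviation of the arrays numbered 3 also makes the other arrays correlate. Myc 3 correlated negatively with wild type 3 and TTP 3, at -0.630 and -0.651. The correlations therefore do not show that the numbers pair the arrays. A fit with the number as a block is given where it changes a call.

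The named genes are the 12 of smallest p and the 8 largest without overlap in each direction, up to 5 of each of 34 lists, the ZFP36 family, Myc, sex-linked genes and those called in the block fits or without arrays numbered 3. Chosen outside that rule after values were seen were immunoglobulin genes not called, single probe sets, Prdm1, Xbp1, Mzb1, Ldha, Mcl1, Pim1, Pim3, Bcl2, Vpreb1, Igll1, Irf7, Pdcd4, Cd209a and Clec10a. The text gives a part of them. The members and lists were chosen with earlier results of these data known. Of 675 listed genes 572 were tested, 51 had no probe set of their own and 52 were below the floor. Alternatives covered the arrays used, the block, the filter, the probe set, the scaling and the variance model.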

Additional observations from a re-analysis of the deposited data

How the results depend on the processing

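The count of 0 genes called for TTP over wild type held under 37 of 47 alternatives, among them other filters, quantile normalization, a common median, an unmoderated linear model and an adjusted p under 0.10. Leaving out 1 array gave 0 to 1 gene, the 1 being Pkm without wild type 3. Leaving out the pair wild type 3 with TTP 3 gave 1 call, and so did leaving out all 4 arrays numbered 3, again Pkm. Testing all probe sets separately called 1, with or without those that lack a symbol. On the 4 arrays numbered 1 and 2 alone, a choice made after seeing the data, 2 were called, Pkm and Pdcd4 (-1.61, adjusted p = 0.0444), and Pdcd4 was 12.12 on TTP 3 against 9.62 and 9.51 on TTP 1 and 2. With the replicate block on 6 arrays 4 genes were called, and leaving out both arrays of a number from that fit, also added after seeing the data, gave 2 to 24, with 1 residual degree of freedom. The interaction count of 0 became 235 without the 4 arrays numbered 3, 1 with all probe sets separately (1 with those lacking a symbol), and 418 with the replicate block on 12 arrays without Myc 3, where the block fits that left out 1 array ranged from 0 to 418. Of single genes, the probe set of largest SD turned Metap2 to -0.027, Trnt1 to -0.0096 and Csf1r to -0.016. Leaving out 1 array gave Myc differences from -0.44 (without TTP 3) to 1.64 (without wild type 3) and Zfp36 differences from -0.42 (without wild type 2) to 0.028 (without wild type 1). Medians of 3 lists moved beyond their spread without the arrays numbered 3: other AU-rich element binding proteins (0.03), BCL2 family (0.18) and heat shock and stress (0.07). The cause of these changes was not tested. With 3 arrays a group and a median standard error of 0.22, differences of the size seen for most lists could not be told from 0 for single genes.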

Other observations

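Among probe sets that the annotation used here gives no single gene, 3480 were above the floor. Probe set 1426174_s_at was at log2 9.45, 8.98 and 7.85 on wild type 1, 2 and 3 and at 3.59, 5.31 and 4.21 on TTP 1, 2 and 3, a difference of -4.39 ± 0.58 (limma adjusted p = 0.137). Probe set 1424631_a_at was at 12.10, 11.24 and 10.05 on the wild-type arrays and at 7.13, 8.69 and 7.70 on the TTP arrays, a difference of -3.29 ± 0.94. Neither passed, and for both every TTP array lay below every wild-type array.

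Lectins of dendritic cells and macrophages, chosen here after their values were seen, were dim on TTP 3. Cd209a was at 7.83, 8.37 and 7.08 on the wild-type arrays and at 7.28, 7.93 and 3.97 on the TTP arrays, and Clec10a at 8.39, 9.12 and 7.60 and at 7.37, 8.09 and 5.07. The differences were -1.37 ± 1.09 and -1.53 ± 0.88, and without TTP 3 they were -0.16 and -0.64.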
